A study of Macaca mulatta with 24 samples.

Results

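Primary motor cortex (M1) was compared with ventral premotor cortex (PMv) in the rhesus monkey, Macaca mulatta. The comparison uses the 6 arrays whose titles name M1 and the 6 whose titles name PMv, 12 of the 24 arrays in the series. The others are 6 arrays of dorsal premotor cortex (PMd) and 6 of prefrontal area 46 (A46). They entered the fit for their spread and are printed as levels. Each array carries biotin-labelled total RNA from 1 piece of cortex of 1 hemisphere. Both areas came from the left and right hemispheres of the same 3 animals, kept in group cages and given no experimental treatment. Animals 1 and 2 were male and animal 3 female, and ages were 2.6 to 2.7 years. All animals received an overdose of pentobarbital and were perfused with cold saline containing heparin before dissection. M1 was its forelimb region, found by the superior genu of the central sulcus. PMv was cut from the caudal bank of the lower limb of the arcuate sulcus together with the neighbouring convexity in front of M1. The pieces held whole tissue, so fewer cells of a type and less RNA per cell cannot be told apart in any value below.

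M1 is the cortical area from which the largest share of fast corticospinal axons descends, and its layer 5 holds the giant Betz cells. PMv links visual and parietal input to hand and mouth movements and projects to M1. In primates M1 is thickly myelinated and lacks a distinct granular layer 4, and large pyramidal cells rich in neurofilament and parvalbumin interneurons with fast, brief spikes are prominent there. Association cortex, by contrast, is known for a thicker set of upper layers.

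Of 26383 probe sets tested with limma, 494 differed between the areas (Benjamini-Hochberg adjusted p under 0.05), 371 higher and 123 lower in M1. An unadjusted p under 0.05 was found for 3981 probe sets (15.1%). With 1 probe set per gene, 222 of 10043 genes differed (2.21% of genes tested), 160 higher (1.59%) and 62 lower (0.617%). Differences are log2 values, M1 minus PMv, of means over 3 animals, so 1 stands for 2-fold, and 7 called genes rose at least 2-fold while 0 fell that far. The median difference of all genes was 0.03, and 59.4% of genes were above 0. Among the called genes, 207 had the same sign in all 6 hemisphere pairs (1 M1 and 1 PMv array of the same animal and side). Of the 494 called probe sets, 175 have no single gene symbol and are not named here. After quantile normalization of the arrays 404 probe sets were higher and 395 lower, and after scaling to a common interquartile range 320 and 321. The median difference of all genes was -0.01 under either scaling. Leaving out animal 1 left 68 probe sets called, leaving out animal 2 left 21, and 3814 were called when animal 3 was left out. The number called was 138 without the right PMv array of animal 1, 218 without that of animal 3 and 860 without the left PMv array of animal 3. Left arrays alone called 32 probe sets, and a fit without the animal block called 4. Calls lost under these last settings are not listed gene by gene below.

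Array properties were also set beside the areas. The interquartile range of log2 values was 2.58 and 2.67 on the left PMv arrays of animals 1 and 2 and 2.73 to 2.91 on the other 10 arrays. As a measure of RNA integrity, the 3' over 5' log2 difference of the actin probe sets averaged 0.94 ± 0.05 in M1 and 1.10 ± 0.14 in PMv, and that of GAPDH 1.03 ± 0.06 and 0.98 ± 0.06 (SD, n = 3 animals). Results without the narrow arrays and under other scalings are given beside the genes they touch, and the part of the actin and GAPDH differences was not tested. Defining genes of neocortex were bright in both areas, with means of 10.99 in M1 and 11.00 in PMv for the vesicular glutamate transporter SLC17A7, 11.10 and 11.01 for the GABA-synthesizing enzyme GAD1, and 10.70 and 10.54 for the deep-layer transcription factor TBR1.

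NEFH, SPP1, PVALB and VAMP1, which are known from large projection neurons or fast-spiking cells, rose in M1. The log2 intensity of NEFH was 10.77, 11.22 and 11.48 in M1 (lowest, median and highest of 6 arrays) and 9.72, 10.02 and 10.13 in PMv. NEFH encodes the heavy neurofilament subunit of thick axons. All 6 M1 arrays lay above all 6 PMv arrays, the right M1 array of animal 2 lowest among them, and the difference was 2.41-fold (1.27, SE 0.08, adjusted p = 1.44e-05). SPP1, which encodes osteopontin, a secreted phosphoprotein found in large layer 5 neurons of primates, was at 9.98, 10.35 and 10.87 in M1 and 8.54, 9.11 and 9.59 in PMv. Its areas did not overlap either, and in both areas the right hemisphere of animal 3 was lowest (1.19, SE 0.13, adjusted p = 0.00155). PVALB, the calcium buffer parvalbumin, was at 8.81, 9.26 and 9.50 in M1 and 7.83, 8.17 and 8.63 in PMv, without overlap, and both M1 arrays of animal 3 were below the other M1 arrays (0.99, SE 0.10, adjusted p = 0.000714). The vesicle fusion protein VAMP1 (synaptobrevin 1), at 8.90, 8.99 and 9.37 in M1 and 8.39, 8.56 and 8.70 in PMv, rose by less (0.51, SE 0.07, adjusted p = 0.00503).

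These 4 genes were the members called among 8 tested genes of the neurofilament and large projection neuron list, whose median was 0.35 beside 0.03 for all genes. For the 4 others the differences were 0.19 for the growth-cone protein STMN2, 0.19 for the microtubule protein MAP1B, 0.06 for THY1 and -0.13 for peripherin, PRPH (adjusted p from 0.136 to 0.747). The 4 tested genes of the motor or sensory cortex list included NEFH, SPP1 and PVALB again, and the remaining member, the serotonin receptor HTR1B, did not pass (-0.03, adjusted p = 0.898). The gene lists were chosen with earlier results of these data known, so their counts and medians are no independent support. In the fast-firing ion channel list 3 of 8 genes rose and 0 fell (1.59% and 0.617% of all genes), with a median of 0.28. SCN1A, the Nav1.1 sodium channel of fast-spiking interneurons, was at 8.37, 8.62 and 9.08 in M1 and 7.49, 8.05 and 8.46 in PMv, with 1 PMv array above the lowest M1 array (0.71, SE 0.12, adjusted p = 0.0109). The potassium channels KCNA2 (Kv1.2; 0.42, adjusted p = 0.0202) and KCNC1 (Kv3.1; 0.37, adjusted p = 0.0255) rose without overlap of the areas. KCNA1 (Kv1.1) did not overlap either but missed the threshold (0.42, adjusted p = 0.0598). Without animal 1 the call was lost for VAMP1, SCN1A, KCNA2 and KCNC1 (adjusted p from 0.0525 to 0.165), and without animal 2 for VAMP1, SCN1A, KCNA2 and KCNC1 (adjusted p from 0.18 to 0.534). Omitting 1 array also ended calls, namely the right PMv array of animal 1 (SCN1A, KCNA2 and KCNC1), with adjusted p from 0.0563 to 0.0654. In right arrays alone KCNA2 did not pass (adjusted p = 0.0671).

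**Figure D1:**
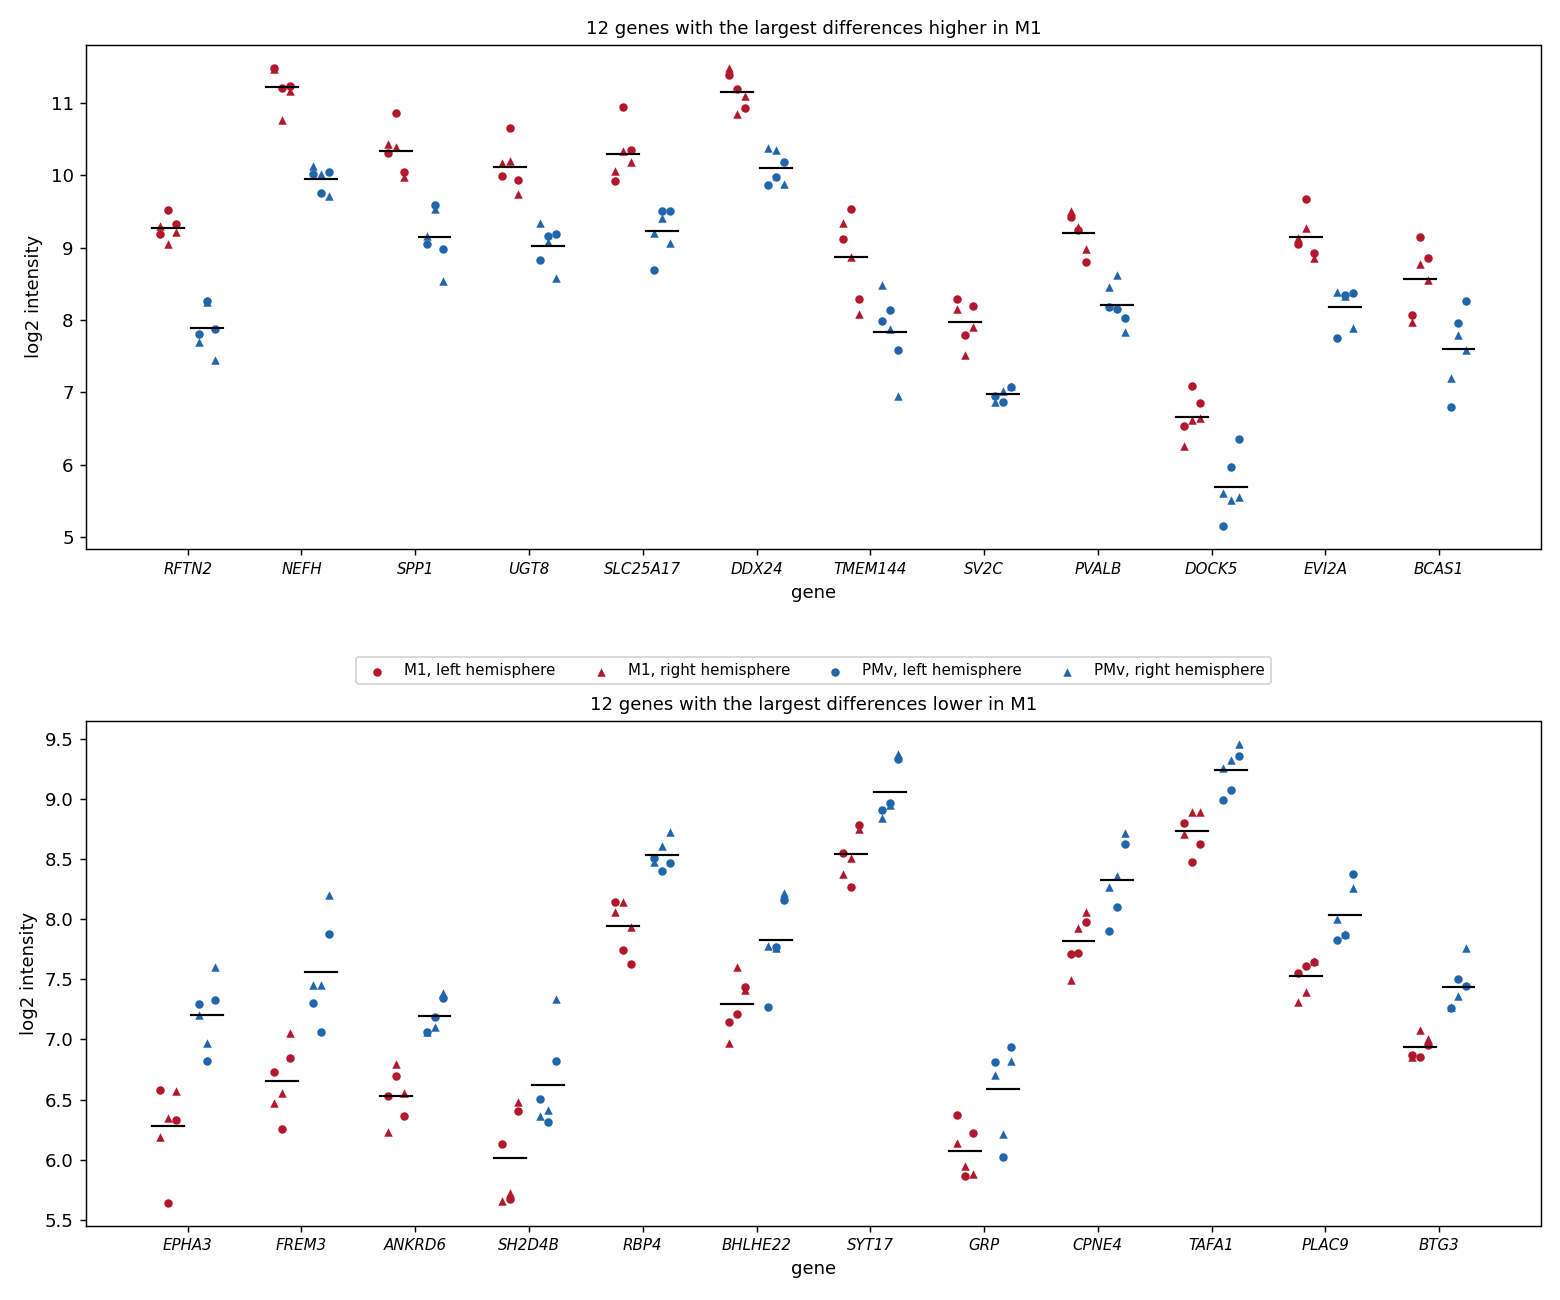
Log2 intensity (vertical axis) on each of the 6 M1 (red) and 6 PMv (blue) arrays for the 12 called genes with the largest differences in each direction; circles are left and triangles right hemispheres, with animals 1 to 3 from left to right within a group, and bars are area means. NEFH lies between 10.77 and 11.48 in M1 and between 9.72 and 10.13 in PMv, while BCAS1 and DOCK5 overlap between the areas.

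The gene furthest above PMv was RFTN2, a lipid-raft protein gene. The log2 intensity of RFTN2 was 9.05, 9.26 and 9.52 in M1 (lowest, median and highest of 6 arrays) and 7.45, 7.84 and 8.27 in PMv. The lowest M1 array was thus above the highest PMv array, and the PMv arrays covered a wider range than those of M1. With hemispheres averaged per animal, the values were 7.89 ± 0.32 in PMv and 9.27 ± 0.02 in M1 (mean ± SD, n = 3 animals). The difference was 2.6-fold (1.38, SE 0.12, adjusted p = 0.000472). SV2C, a synaptic vesicle glycoprotein, was at 7.52, 8.03 and 8.29 in M1 and 6.86, 6.99 and 7.09 in PMv, without overlap (1.00, SE 0.12, adjusted p = 0.0018). DDX24, an RNA helicase gene, was at 10.86, 11.15 and 11.49 in M1 and 9.86, 10.09 and 10.38 in PMv (1.05, SE 0.11, adjusted p = 0.000842). All 3 DDX24 probe sets had this sign, but 1 passed, and when the median over a gene's probe sets was fitted DDX24 was not called (0.15, adjusted p = 0.496). The peroxisomal carrier SLC25A17 (1.07, SE 0.16, adjusted p = 0.00668) and EVI2A, a gene inside an intron of NF1 (0.97, SE 0.21, adjusted p = 0.0381), were higher in every M1 array than in any PMv array. DOCK5, a guanine nucleotide exchange factor for Rac, was at 6.26, 6.63 and 7.09 in M1 and 5.15, 5.58 and 6.35 in PMv and overlapped, the left PMv array of animal 3 being highest in PMv (0.97, SE 0.16, adjusted p = 0.012). Leaving out animal 1 ended the call for SLC25A17 and EVI2A (adjusted p from 0.052 to 0.203), and without animal 2 for EVI2A and DOCK5 (adjusted p from 0.221 to 0.244). Calls were further lost on leaving out the right PMv array of animal 1 (EVI2A), the right PMv array of animal 2 (EVI2A) and the right PMv array of animal 3 (EVI2A and DOCK5), with adjusted p from 0.0525 to 0.0902. Right-hemisphere arrays alone did not call EVI2A (adjusted p = 0.076). A call was also absent under the interquartile range as a covariate (EVI2A) and the median over a gene's probe sets (DDX24), with adjusted p from 0.0888 to 0.496.

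Most of the measured myelin genes rose in M1. As deposited and with hemispheres averaged, all 12 tested genes of the oligodendrocyte and myelin list had positive differences (59.4% of all genes). In this list 8 rose and 0 fell (1.59% and 0.617% of all genes), and the median was 0.60. In 6 of the 12 every M1 array was above every PMv array (149 of all 10043 genes, 1.48%). UGT8, which synthesizes galactosylceramide, a lipid of myelin, was at 9.75, 10.09 and 10.65 in M1 and 8.58, 9.12 and 9.34 in PMv (1.09, SE 0.20, adjusted p = 0.0193). The left M1 array of animal 2 was highest and no PMv array reached the M1 arrays. GJB1 (connexin 32, the gap junction protein of myelin) was at 7.99, 8.34 and 8.83 in M1 and 6.88, 7.53 and 7.74 in PMv (0.88, SE 0.12, adjusted p = 0.00398), again with the left M1 array of animal 2 on top and the right PMv array of animal 3 far below the rest. GPR37, a receptor of differentiating oligodendrocytes, was at 9.86, 10.05 and 10.30 in M1 and 8.98, 9.06 and 9.48 in PMv (0.89, SE 0.14, adjusted p = 0.00848). ENPP2 (autotaxin), at 9.82, 10.01 and 10.61 in M1 and 8.96, 9.40 and 9.47 in PMv, likewise did not overlap (0.81, SE 0.14, adjusted p = 0.0142).

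The myelin membrane proteins PLLP (0.76, adjusted p = 0.0348) and MAL (0.63, adjusted p = 0.0414) and the oligodendrocyte transcription factors SOX10 (0.57, adjusted p = 0.0364) and MYRF (0.54, adjusted p = 0.0337) also rose, and of these MYRF alone had no overlap of the areas. The 4 members that did not pass were the N-acetylaspartate hydrolase ASPA (0.47, adjusted p = 0.149), myelin basic protein MBP (0.37, adjusted p = 0.201), the lineage factor OLIG2 (0.34, adjusted p = 0.0595) and CNP (0.12, adjusted p = 0.481). The 95% interval (unadjusted, as are all intervals here) of the MBP difference was 0.08 to 0.66, and the other of its 2 probe sets was called with the same sign. That of CNP was -0.04 to 0.28, and its difference was -0.0017 in right arrays alone and -0.02 at a common interquartile range. The mean log2 level of the 12 genes was 9.41 to 10.04 on M1 arrays and 8.72 to 9.23 on PMv arrays, and its part in the differences of other genes was not tested. Of 6 precursor genes only BCAS1, a gene of newly myelinating oligodendrocytes, rose (0.96, SE 0.12, adjusted p = 0.00335). The median of this list was 0.08, and 1.59% of all genes rose. BCAS1 values, 7.98, 8.67 and 9.15 in M1 and 6.80, 7.69 and 8.27 in PMv, overlapped, animal 1 being lower than the others in both areas. TMEM144, a transmembrane protein gene on no list, at 8.09, 9.00 and 9.54 in M1 and 6.96, 7.93 and 8.48 in PMv, overlapped in the same manner, with animal 3 low in both areas (1.04, SE 0.16, adjusted p = 0.00771). When animal 1 was left out, UGT8, PLLP, MAL, SOX10 and MYRF no longer passed (adjusted p from 0.141 to 0.259). Without animal 2 the same was true of UGT8, GPR37, GJB1, ENPP2, PLLP, MAL, SOX10, MYRF, BCAS1 and TMEM144 (adjusted p from 0.0835 to 0.497). The same followed for single arrays, on omission of the left M1 array of animal 2 (MAL), the left M1 array of animal 3 (SOX10), the right M1 array of animal 1 (MAL), the right PMv array of animal 1 (UGT8, ENPP2, PLLP, MAL, SOX10 and MYRF), the right PMv array of animal 2 (PLLP, MAL, SOX10 and MYRF) and the right PMv array of animal 3 (ENPP2, PLLP, MAL, SOX10 and MYRF), with adjusted p from 0.0501 to 0.0915. The right arrays by themselves gave no call for SOX10 and MYRF (adjusted p from 0.0695 to 0.0785). Further settings that ended a call were a common interquartile range (PLLP and MAL), the interquartile range as a covariate (PLLP and SOX10), quantile normalization (MAL) and no intensity trend (MAL), with adjusted p from 0.0536 to 0.0862.

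**Figure D2:**
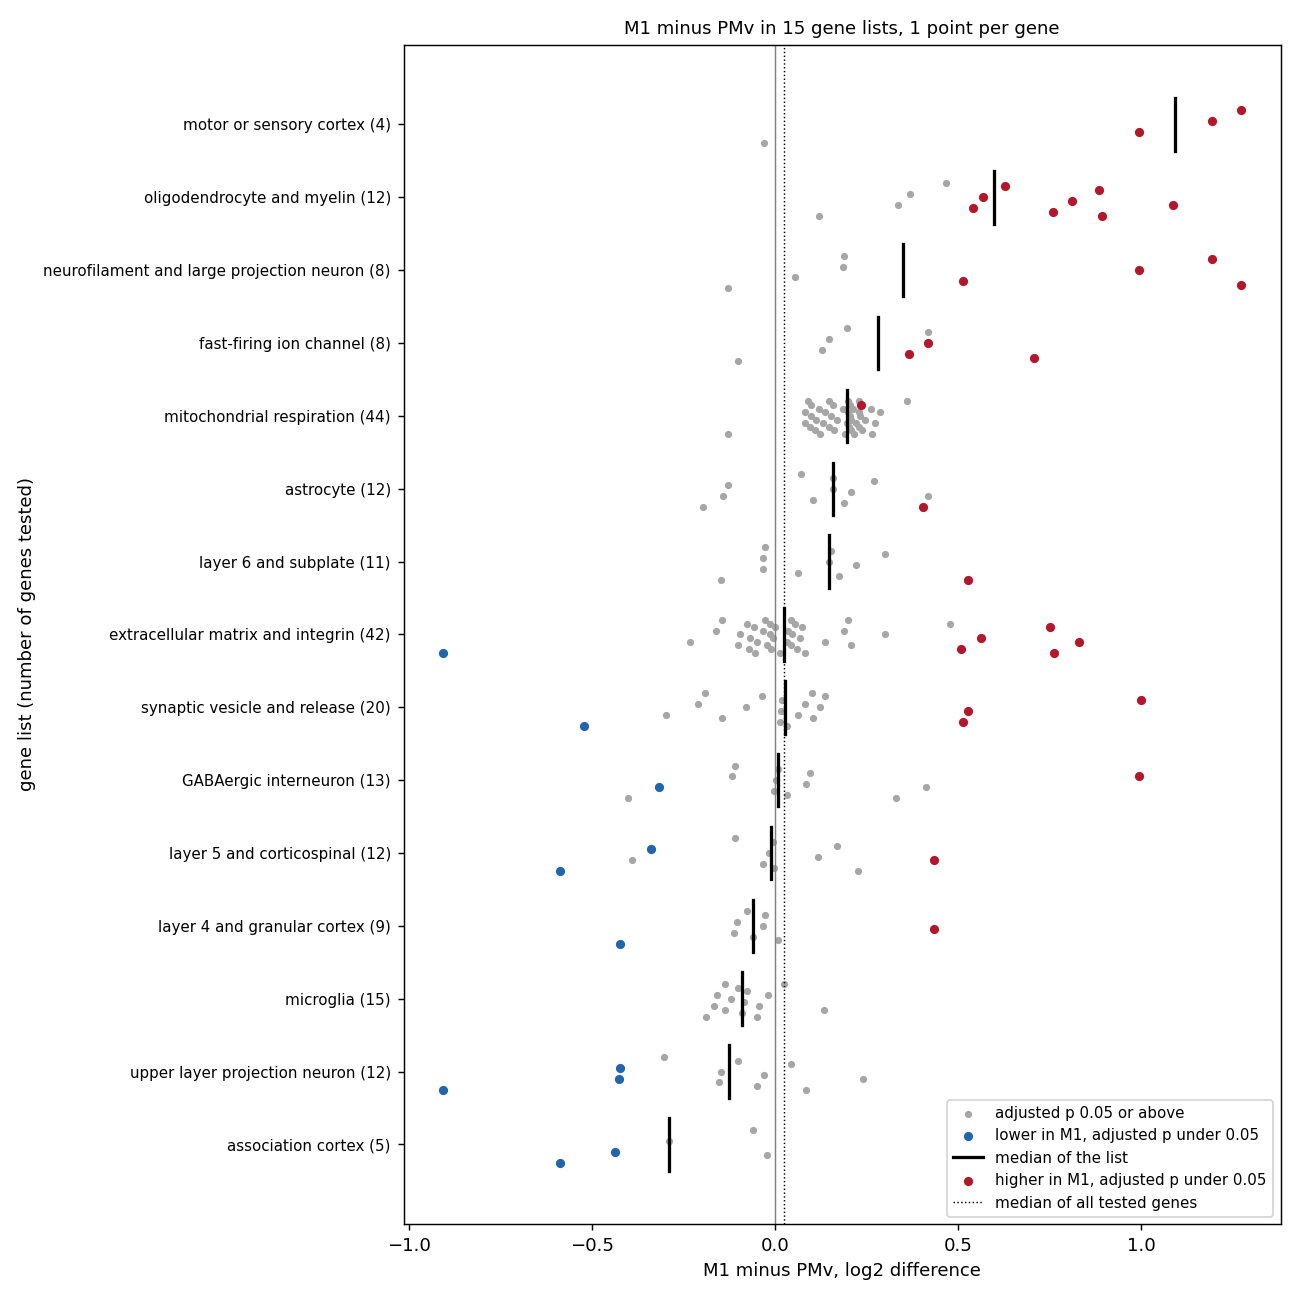
M1 minus PMv log2 difference (horizontal axis) of every tested gene in 15 lists (vertical axis, number tested in brackets); red and blue points passed the test, grey ones did not, vertical bars are list medians and the dotted line is the median of all tested genes, 0.03. All 12 myelin genes lie above 0 with a median of 0.60, and the association cortex genes lie below 0.

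Matrix genes moved in both directions. Of 42 extracellular matrix and integrin genes 5 rose and 1 fell (1.59% and 0.617% of all genes). Their median was 0.02, or -0.01 after quantile normalization. ACAN (aggrecan), the core proteoglycan of the perineuronal nets around parvalbumin cells, was at 9.22, 9.51 and 10.06 in M1 and 8.16, 8.73 and 9.20 in PMv, without overlap (0.83, SE 0.17, adjusted p = 0.0298). HAPLN4, a link protein of those nets, was at 8.19, 8.42 and 8.63 in M1 and 7.37, 7.59 and 8.22 in PMv, and its right PMv array of animal 2 exceeded the lowest M1 array (0.75, SE 0.10, adjusted p = 0.00398). HAPLN2, a link protein of nodes of Ranvier (0.56, adjusted p = 0.0414), the type IV collagen chain COL4A5 (0.76, adjusted p = 0.0378) and the proteoglycan SPOCK3 (0.51, adjusted p = 0.026) rose too. The net components HAPLN1 (-0.03, adjusted p = 0.872), VCAN (0.04, adjusted p = 0.884) and BCAN (-0.05, adjusted p = 0.798) did not pass. The member that fell was FREM3. Without animal 1 the call was lost for ACAN, HAPLN4, HAPLN2, COL4A5 and SPOCK3 (adjusted p from 0.052 to 0.203), and without animal 2 for ACAN, HAPLN2, COL4A5 and SPOCK3 (adjusted p from 0.15 to 0.545). Omitting 1 array also ended calls, namely the left M1 array of animal 2 (HAPLN2 and SPOCK3), the right M1 array of animal 1 (HAPLN2 and COL4A5), the right PMv array of animal 1 (ACAN, HAPLN2, COL4A5 and SPOCK3), the right PMv array of animal 2 (ACAN, HAPLN2 and COL4A5) and the right PMv array of animal 3 (ACAN, HAPLN2, COL4A5 and SPOCK3), with adjusted p from 0.0518 to 0.1. In right arrays alone SPOCK3 did not pass (adjusted p = 0.0881). Other settings without the call were a common interquartile range (HAPLN2), the interquartile range as a covariate (HAPLN2 and COL4A5), quantile normalization (HAPLN2), the median over a gene's probe sets (SPOCK3) and no intensity trend (HAPLN2), with adjusted p from 0.0525 to 0.091.

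Among lower genes in M1, EPHA3 and FREM3 had the largest differences. EPHA3, a receptor for ephrin-A guidance cues, was at 5.64, 6.34 and 6.58 in M1 and 6.82, 7.25 and 7.60 in PMv. Every M1 array was below every PMv array (58 of all 10043 genes, 0.578%), and the left M1 array of animal 2 was lowest. The difference corresponded to a 1.9-fold higher level in PMv (-0.93, SE 0.08, adjusted p = 0.000472). FREM3, a matrix protein and a marker of upper layer pyramidal cells, was at 6.25, 6.64 and 7.05 in M1 and 7.06, 7.45 and 8.20 in PMv (-0.91, SE 0.11, adjusted p = 0.0018). Its 2 PMv arrays of animal 3 were above the other PMv arrays, and the lowest PMv array, the left of animal 2, was still above every M1 array. RBP4, the retinol carrier, was at 7.63, 8.00 and 8.14 in M1 and 8.40, 8.49 and 8.72 in PMv (-0.59, SE 0.09, adjusted p = 0.00643), and the M1 array nearest to PMv was still lower than all of PMv.

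Further down the list came ANKRD6, which acts in Wnt signalling (-0.66, SE 0.09, adjusted p = 0.00398), and the synaptotagmin SYT17 (-0.52, SE 0.08, adjusted p = 0.00643). They were followed by the secreted protein TAFA1 (-0.51, SE 0.08, adjusted p = 0.00796), PLAC9 (-0.50, SE 0.08, adjusted p = 0.0102) and the antiproliferative factor BTG3 (-0.50, SE 0.08, adjusted p = 0.00971), and the areas overlapped in none of these genes. The transcription factor BHLHE22 (-0.53, adjusted p = 0.0225), the calcium-dependent membrane-binding protein CPNE4 (-0.51, adjusted p = 0.0108), the neuropeptide GRP (-0.52, adjusted p = 0.0325) and SH2D4B (-0.61, adjusted p = 0.0102) fell with overlap. SYT17 had its highest levels on the 2 PMv arrays of animal 3, and its M1 and PMv ranges, 8.27, 8.53 and 8.78 in M1 and 8.84, 8.95 and 9.37 in PMv, did not overlap. In guidance genes as a whole, 1 of 41 rose and 2 fell (1.59% and 0.617% of all genes), with a median of -0.03. Besides EPHA3, the ligand EFNB3 fell (-0.44, adjusted p = 0.0051, 8.26, 8.32 and 8.41 in M1 and 8.67, 8.79 and 8.87 in PMv) and the netrin receptor UNC5B rose (0.48, adjusted p = 0.014). None of 18 cadherin and protocadherin genes passed limma's threshold (0 called, 5 at an unadjusted p under 0.05, and PCDH11X came nearest with 0.44, adjusted p = 0.0503). That unadjusted level was reached by 15.1% of all probe sets. Of 23 patterning and retinoic acid genes BHLHE22 and RBP4 fell and 0 rose. Leaving out animal 1 ended the call for ANKRD6, BHLHE22, GRP, CPNE4, PLAC9, BTG3, EFNB3 and UNC5B (adjusted p from 0.0507 to 0.173), and without animal 2 for FREM3, SH2D4B, RBP4, BHLHE22, SYT17, GRP, CPNE4, TAFA1, PLAC9, BTG3, EFNB3 and UNC5B (adjusted p from 0.0626 to 0.412). Calls were further lost on leaving out the right PMv array of animal 1 (BHLHE22, GRP, CPNE4 and TAFA1), the right PMv array of animal 2 (GRP) and the right PMv array of animal 3 (GRP), with adjusted p from 0.0534 to 0.141. Right-hemisphere arrays alone did not call UNC5B (adjusted p = 0.0604). The call was also absent under the median over a gene's probe sets (EFNB3), with adjusted p = 0.0831.

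Layer markers gave calls in both directions, where 1.59% of all genes rose and 0.617% fell. Of 12 upper layer projection neuron genes 3 fell and 0 rose, with a median of -0.12. Besides FREM3, the homeobox factor CUX2 was at 8.04, 8.60 and 8.74 in M1 and 8.77, 8.86 and 9.28 in PMv, without overlap (-0.42, adjusted p = 0.0402). C1QL2, a secreted synaptic protein, was at 7.85, 7.97 and 8.33 in M1 and 8.20, 8.47 and 8.67 in PMv, with overlap (-0.43, adjusted p = 0.013). Among 12 layer 5 and corticospinal genes the factor ETV1 rose (0.44, adjusted p = 0.0208), RBP4 and the thyroid hormone-binding protein CRYM fell (-0.34, adjusted p = 0.04 for CRYM), and the median was -0.01. FEZF2, which specifies subcerebral projection neurons, was at 8.49, 8.57 and 8.89 in M1 and 8.06, 8.38 and 8.68 in PMv and did not pass (0.23, adjusted p = 0.233, 95% interval 0.04 to 0.42). TSHZ2 stood just outside the threshold (-0.39, adjusted p = 0.0503).

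Of 9 genes on the layer 4 and granular cortex list ETV1 rose and CUX2 fell, and no other member was called. Both were counted above, ETV1 on the layer 5 and corticospinal list and CUX2 on the upper layer list. RORB, a nuclear receptor that defines layer 4, was at 6.75, 6.92 and 7.13 in M1 and 6.82, 7.03 and 7.20 in PMv, largely overlapping (-0.10, adjusted p = 0.717, 95% interval -0.36 to 0.15). In layer 6 and subplate 1 of 11 genes rose, the synaptotagmin SYT6 at 7.45, 7.49 and 7.81 in M1 and 6.78, 7.08 and 7.21 in PMv (0.53, adjusted p = 0.0385), with a list median of 0.15. As deposited, all 5 association cortex genes had negative differences and 2 fell, RBP4 and the neuronal antigen PNMA5 (7.00, 7.36 and 7.50 in M1 and 7.53, 7.62 and 8.07 in PMv, -0.44, adjusted p = 0.023). Over all genes tested, 1.59% rose, 0.617% fell and 59.4% had a positive difference. SLIT1, a repellent guidance ligand, did not pass (-0.29, adjusted p = 0.239). When animal 1 was left out, C1QL2, ETV1 and CRYM no longer passed (adjusted p from 0.0712 to 0.144). Without animal 2 the same was true of CUX2, C1QL2, ETV1, CRYM, SYT6 and PNMA5 (adjusted p from 0.435 to 0.756). The same followed for single arrays, on omission of the left M1 array of animal 1 (SYT6), the left M1 array of animal 2 (CUX2 and SYT6), the left M1 array of animal 3 (CUX2 and CRYM), the right M1 array of animal 1 (CUX2 and CRYM), the left PMv array of animal 2 (CRYM), the right PMv array of animal 1 (CUX2, ETV1, CRYM, SYT6 and PNMA5), the right PMv array of animal 2 (CUX2 and SYT6) and the right PMv array of animal 3 (CUX2, C1QL2, ETV1, CRYM and SYT6), with adjusted p from 0.0508 to 0.22. The right arrays by themselves gave no call for ETV1 and CRYM (adjusted p from 0.0671 to 0.235). Further settings that ended a call were the interquartile range as a covariate (SYT6), the median over a gene's probe sets (ETV1), no intensity trend (CUX2 and CRYM) and single arrays with a random block (CUX2), with adjusted p from 0.0523 to 0.171.

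Among interneuron genes 1 rose and 1 fell (1.59% and 0.617% of all genes). Of 13 tested, PVALB rose and TAC3, the neuropeptide neurokinin B, fell (6.42, 6.60 and 6.82 in M1 and 6.58, 6.93 and 7.25 in PMv, -0.32, adjusted p = 0.047), and the median was 0.01, or -0.03 at a common interquartile range. GAD2 (0.41, adjusted p = 0.128), the peptide CRH (0.33, adjusted p = 0.115) and the serotonin receptor HTR3A (-0.40, adjusted p = 0.0837) did not pass, although all 6 M1 arrays of HTR3A were below PMv. Among 36 potassium channel genes 3 rose and 1 fell. KCNJ10, the Kir4.1 channel of glia, was at 9.40, 9.46 and 9.61 in M1 and 8.74, 8.99 and 9.06 in PMv (0.54, SE 0.08, adjusted p = 0.00775), and the calcium-activated channel KCNN3 fell (-0.34, adjusted p = 0.0258), both without overlap. The other called members were KCNA2 and KCNC1. Of 20 sodium, calcium, HCN and TRP channel genes SCN1A rose, and the accessory subunits SCN3B (-0.31, adjusted p = 0.0216) and CACNB3 (-0.27, adjusted p = 0.0349) fell without overlap. The sodium-calcium exchanger SLC8A1 varied widely, at 8.14, 9.31 and 9.81 in M1 and 7.72, 8.66 and 9.16 in PMv, and did not pass (0.61, adjusted p = 0.258, 95% interval 0.08 to 1.14). Without animal 1 the call was lost for TAC3, KCNJ10, KCNN3, SCN3B and CACNB3 (adjusted p from 0.0712 to 0.251), and without animal 2 for TAC3, KCNJ10, KCNN3, SCN3B and CACNB3 (adjusted p from 0.326 to 0.934). Omitting 1 array also ended calls, namely the left M1 array of animal 1 (TAC3), the left M1 array of animal 2 (TAC3), the right M1 array of animal 1 (CACNB3), the right M1 array of animal 3 (TAC3), the left PMv array of animal 1 (TAC3 and KCNN3), the left PMv array of animal 2 (TAC3 and KCNN3), the right PMv array of animal 1 (TAC3, SCN3B and CACNB3), the right PMv array of animal 2 (TAC3 and CACNB3) and the right PMv array of animal 3 (TAC3 and CACNB3), with adjusted p from 0.0512 to 0.113. In right arrays alone TAC3, KCNN3, SCN3B and CACNB3 did not pass (adjusted p from 0.0884 to 0.391). Other settings without the call were the interquartile range as a covariate (TAC3), omission of both PMv arrays of narrow spread (TAC3 and KCNN3), the median over a gene's probe sets (CACNB3), no filter on dim probe sets (TAC3) and no intensity trend (CACNB3), with adjusted p from 0.0519 to 0.108.

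By limma 0 of 11 glutamatergic transmission genes and 0 of 6 GABA receptor genes passed (4 and 1 at an unadjusted p under 0.05), and the smallest adjusted p-values were 0.0726 for the AMPA receptor subunit GRIA4 (-0.29) and 0.148 for GABRB1 (-0.27). For these and the next lists, 15.1% of all probe sets had an unadjusted p under 0.05. Of 31 neuromodulator and neuropeptide receptor genes 1 fell (2.21% of all genes were called), the nociceptin receptor OPRL1 at 9.83, 10.21 and 10.29 in M1 and 10.44, 10.57 and 10.87 in PMv (-0.47, SE 0.07, adjusted p = 0.00643). Its areas did not overlap, and OPRM1, the mu opioid receptor, did not pass (0.35, adjusted p = 0.0782). Leaving out animal 2 ended the call for OPRL1 (adjusted p = 0.285). The call was also absent under the median over a gene's probe sets, with adjusted p = 0.0531. In the synaptic vesicle and release list SV2C, VAMP1 and SYT6 rose and SYT17 fell among 20 genes, with a median of 0.03, or -0.08 at a common interquartile range. Of 13 axonal growth and neurotrophin genes limma called 0 (5 at an unadjusted p under 0.05), and GAP43, the growth-cone protein, was at 10.40, 10.74 and 11.00 in M1 and 10.14, 10.51 and 10.85 in PMv (0.22, adjusted p = 0.295). Of 24 immediate early genes, which follow neuronal activity, limma called 0 (6 at an unadjusted p under 0.05). EGR2 was at 6.65, 6.86 and 7.16 in M1 and 6.44, 6.94 and 7.29 in PMv (0.03, adjusted p = 0.925, 95% interval -0.22 to 0.28), and DUSP1 had the smallest adjusted p (0.27, adjusted p = 0.126).

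Differences of respiratory chain genes were small. Of 44 tested, 43 were positive (59.4% of all genes), with a median of 0.20. In this list 1 gene rose (1.59% of all genes), the ATP synthase subunit ATP5MC3. It was at 11.22, 11.36 and 11.48 in M1 and 11.01, 11.14 and 11.23 in PMv (0.24, adjusted p = 0.0452). When animal 1 was left out, ATP5MC3 no longer passed (adjusted p = 0.501). Without animal 2 the same was true of ATP5MC3 (adjusted p = 0.848). The same followed for single arrays, on omission of the left M1 array of animal 1, the left M1 array of animal 2, the right M1 array of animal 3, the left PMv array of animal 2, the right PMv array of animal 1, the right PMv array of animal 2 and the right PMv array of animal 3, with adjusted p from 0.0513 to 0.134. The right arrays by themselves gave no call for ATP5MC3 (adjusted p = 0.123). Further settings that ended a call were a common interquartile range, the interquartile range as a covariate, quantile normalization, no filter on dim probe sets, no intensity trend and a fit of M1 and PMv only, with adjusted p from 0.056 to 0.499. SDHA, a subunit of complex II, did not pass (0.26, adjusted p = 0.0511). By hemisphere pair the list's median was 0.42, 0.30 and -0.02 in the left hemispheres of animals 1 to 3 and 0.13, 0.08 and 0.16 in the right. All genes together had medians of 0.13, 0.08 and -0.03 in the left hemispheres of animals 1 to 3 and 0.01, -0.01 and 0.03 in the right. The respiratory chain list was highest in the pairs that hold the 2 PMv arrays of narrow spread, and the part of that spread was not tested. Its median was 0.13 in right arrays and 0.07 after scaling to a common interquartile range. The myelin list had 0.68, 0.73 and 0.45 in the left hemispheres of animals 1 to 3 and 0.55, 0.65 and 0.82 in the right, and a median of 0.66 in right arrays and 0.53 after that scaling.

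**Figure D3:**
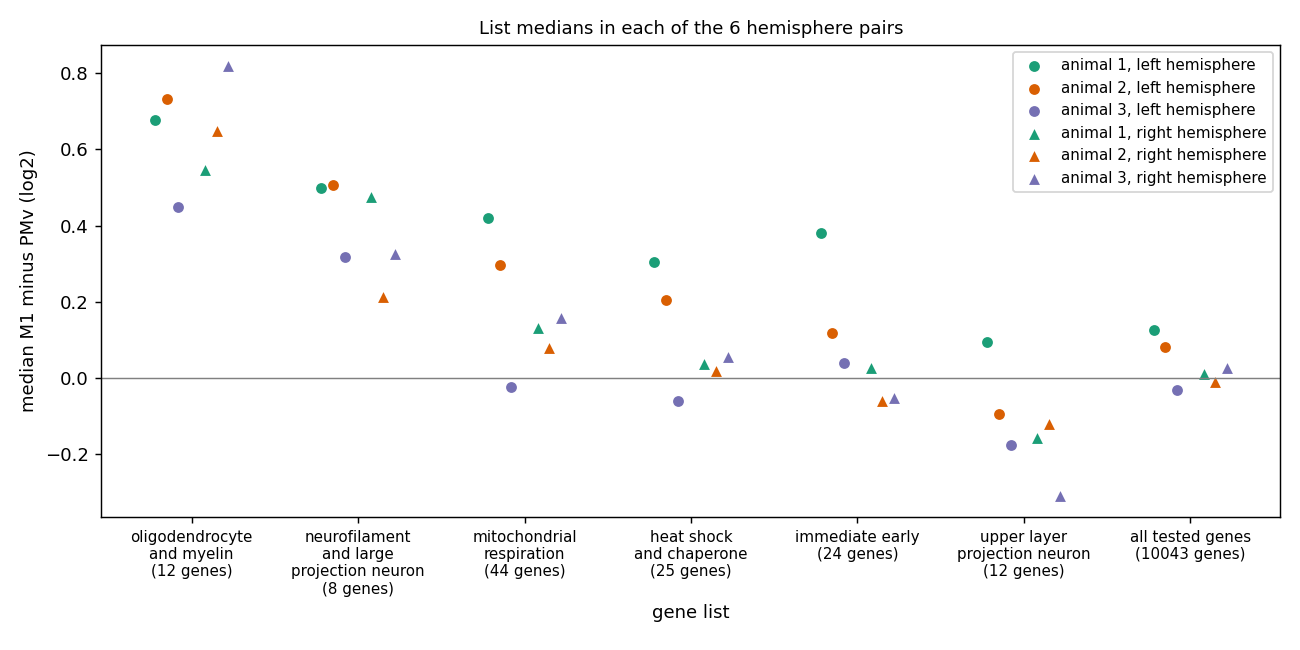
Median M1 minus PMv log2 difference (vertical axis) of 6 gene lists and of all tested genes in each of the 6 pairs of an M1 and a PMv array from the same animal and side; colours are animals, circles left and triangles right hemispheres. The myelin list lies between 0.45 and 0.82 in every pair, whereas the mitochondrial list is 0.42 and 0.30 in the left hemispheres of animals 1 and 2 and at most 0.16 in the others.

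Among mitochondrial and other carriers of the SLC25 family 2 of 23 genes rose, SLC25A17 and the ADP/ATP carrier SLC25A5, at 11.29, 11.42 and 11.47 in M1 and 10.87, 11.11 and 11.21 in PMv without overlap (0.35, SE 0.06, adjusted p = 0.0102). Of 25 heat shock and chaperone genes 1 fell, DNAJA4 (-0.36, adjusted p = 0.0221). Among all genes 1.59% rose and 0.617% fell. The median of the heat shock and chaperone list changed sign with the scaling (0.11 as deposited, -0.0025 at a common interquartile range). That of all genes changed sign too, from 0.03 to -0.01. CRYAB, a small heat shock protein abundant in oligodendrocytes, did not pass (0.47, adjusted p = 0.067). By limma 0 of 30 cytosolic ribosomal protein genes, 0 of 23 microtubule motor and tubulin genes and 0 of 23 transmitter, amino acid and chloride transporter genes passed (3, 5 and 5 at an unadjusted p under 0.05, against 15.1% of all probe sets), with medians of 0.01, 0.03 and 0.07. At a common interquartile range these were -0.10, -0.06 and 0.03. Without animal 1 the call was lost for SLC25A5 and DNAJA4 (adjusted p from 0.0587 to 0.141), and without animal 2 for SLC25A5 and DNAJA4 (adjusted p from 0.416 to 0.57). Omitting 1 array also ended calls, namely the right M1 array of animal 1 (DNAJA4) and the right PMv array of animal 1 (DNAJA4), with adjusted p from 0.0536 to 0.13. Other settings without the call were a common interquartile range (SLC25A5) and the median over a gene's probe sets (DNAJA4), with adjusted p from 0.0991 to 0.173.

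Markers of other cells were set beside the 2.21% called among all genes. Of 12 astrocyte genes 1 rose, GJB6 (connexin 30) at 8.67, 8.93 and 9.06 in M1 and 7.89, 8.63 and 8.79 in PMv (0.40, adjusted p = 0.0378). S100B (0.42, adjusted p = 0.153) and GFAP (-0.13, adjusted p = 0.798) did not pass, and the list's median was 0.16 as deposited and -0.02 at a common interquartile range. The mean log2 level of the astrocyte list was 10.41 to 10.66 on M1 arrays and 10.18 to 10.54 on PMv arrays. By limma 0 of 15 microglia, 0 of 12 endothelial cell and pericyte, 0 of 14 meninges and choroid plexus, 0 of 6 striatal neuron and 0 of 3 blood cell genes passed. At an unadjusted p under 0.05 these lists held 2, 0, 1, 1 and 0 genes, against 15.1% of all probe sets. Mean log2 levels of the microglia list were 7.13 to 7.30 on M1 arrays and 7.24 to 7.33 on PMv arrays, and those of the endothelial list 7.27 to 7.33 on M1 arrays and 7.17 to 7.36 on PMv arrays. The meninges and choroid plexus list ranged over 6.88 to 7.07 on M1 arrays and 6.55 to 7.35 on PMv arrays. For the striatal list the range was 7.87 to 7.97 on M1 arrays and 7.72 to 7.94 on PMv arrays, and for blood cells 6.64 to 6.83 on M1 arrays and 6.69 to 6.88 on PMv arrays. Haemoglobin HBB was at 6.63, 6.83 and 6.94 in M1 and 6.71, 6.82 and 7.03 in PMv, and COL1A1, a collagen of the meninges, at 5.37, 5.61 and 5.71 in M1 and 5.10, 5.91 and 6.46 in PMv. Both gave overlapping ranges. Leaving out animal 1 ended the call for GJB6 (adjusted p = 0.21), and without animal 2 for GJB6 (adjusted p = 0.895). Calls were further lost on leaving out the left M1 array of animal 2, the right M1 array of animal 3, the left PMv array of animal 2, the right PMv array of animal 1 and the right PMv array of animal 2, with adjusted p from 0.0539 to 0.121. Right-hemisphere arrays alone did not call GJB6 (adjusted p = 0.436). The call was also absent under omission of both PMv arrays of narrow spread, with adjusted p = 0.0756.

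Right-hemisphere arrays alone, which leave out the PMv arrays of narrow spread, called 132 of 10043 genes (1.31%), 84 higher and 48 lower in M1. The left arrays were not used in that choice. There 81 of the 84 higher genes had a positive difference in 3 of 3 animals (96.4%, against 17.2% of all genes), with a median of 0.57 on the right and 0.59 on the left. Of the 48 lower genes 38 had a negative difference in 3 of 3 animals (79.2%, against 8.91% of all genes), with medians of -0.46 and -0.35. Left and right came from the same animals, so the left arrays repeat the dissection and hybridisation and not the animal. Left arrays alone called 11 and 4 of these genes, and 32 probe sets in all. Of the 52 called genes named by the rule, left arrays alone called 14 and a fit without the animal block called 2, RFTN2 and NEFH. NEFH was higher in M1 by 1.18 on the right and 1.37 on the left, RFTN2 by 1.39 and 1.36, and EPHA3 gave -0.89 and -0.96. A test of the difference between hemispheres called 0 of 26383 probe sets with limma, with 2057 at an unadjusted p under 0.05.

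**Figure D4:**
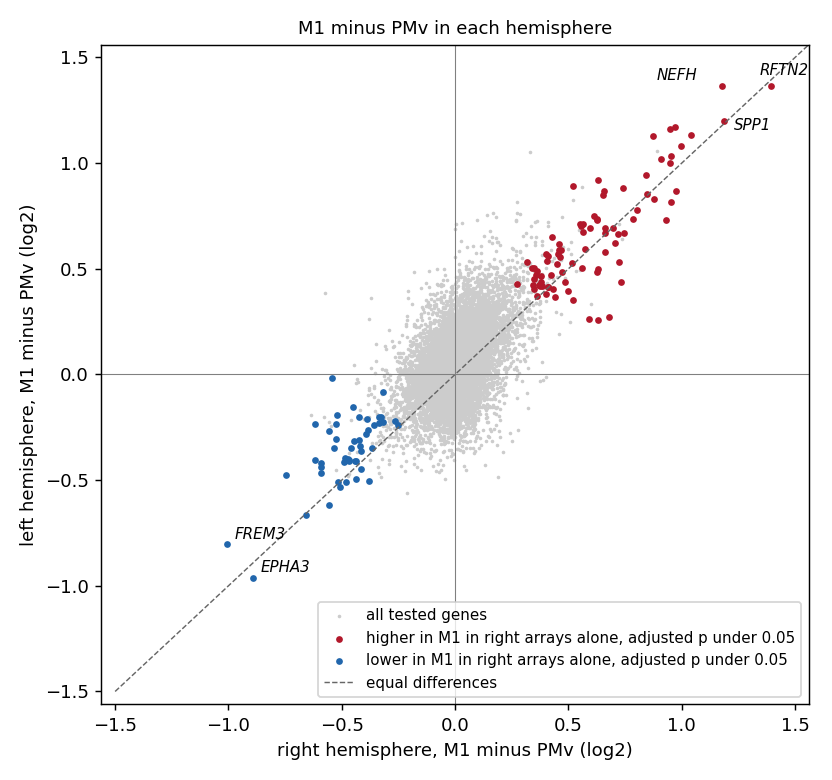
M1 minus PMv log2 difference of each tested gene in right-hemisphere arrays (horizontal axis) and in left-hemisphere arrays (vertical axis), means over 3 animals; red and blue points are the 84 and 48 genes called higher and lower in right arrays alone, and the dashed line marks equal differences. The coloured points were chosen on the right values only, and among them NEFH, RFTN2 and SPP1 have the largest values on both axes.

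The other premotor area gives the same genes a scale within motor cortex. PMd and PMv differed in 2 genes (0.0199% of genes tested). The formin DIAPH3 was at 6.33 in M1, 7.27 in PMd, 6.39 in PMv and 6.03 in A46 (0.89, adjusted p = 0.0119 for PMd minus PMv), highest in PMd and not called between M1 and PMv (-0.06, adjusted p = 0.811). The activity-regulated factor FOS was at 7.29 in M1, 7.84 in PMd, 7.04 in PMv and 7.76 in A46 (0.80, adjusted p = 0.0307). Neither was called in M1 minus PMv. NEFH had means of 11.22 in M1, 10.40 in PMd, 9.95 in PMv and 8.98 in A46, and the step from PMv to PMd was not called (0.45, SE 0.08, adjusted p = 0.257). For PVALB the means were 9.21 in M1, 8.75 in PMd, 8.22 in PMv and 7.92 in A46 (0.53, SE 0.10, adjusted p = 0.297 for the same step). Both steps were large beside their SE, and a step that was not called is not evidence of equal levels. GJB1 was at 8.34 in M1, 7.60 in PMd, 7.45 in PMv and 6.76 in A46, and the step from PMv to PMd was not called (0.15, SE 0.12, adjusted p = 0.856). In the opposite direction EPHA3 was at 6.28 in M1, 7.11 in PMd, 7.20 in PMv and 7.62 in A46. FREM3 was at 6.65 in M1, 7.57 in PMd, 7.56 in PMv and 8.02 in A46. The step between the premotor areas was not called (-0.09, SE 0.08, adjusted p = 0.87 for EPHA3 and 0.01, SE 0.11, adjusted p = 0.99 for FREM3). SYT17 had its highest mean in PMv, 9.06, against 8.83 in PMd and 8.80 in A46, and its step between the premotor areas was not called (-0.23, SE 0.08, adjusted p = 0.854). Without animal 3, 1398 probe sets were called in PMd minus PMv, and without animal 2, the left M1 array of animal 2 or the right PMv array of animal 1 limma called 0. These comparisons share the PMv arrays.

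**Figure D5:**
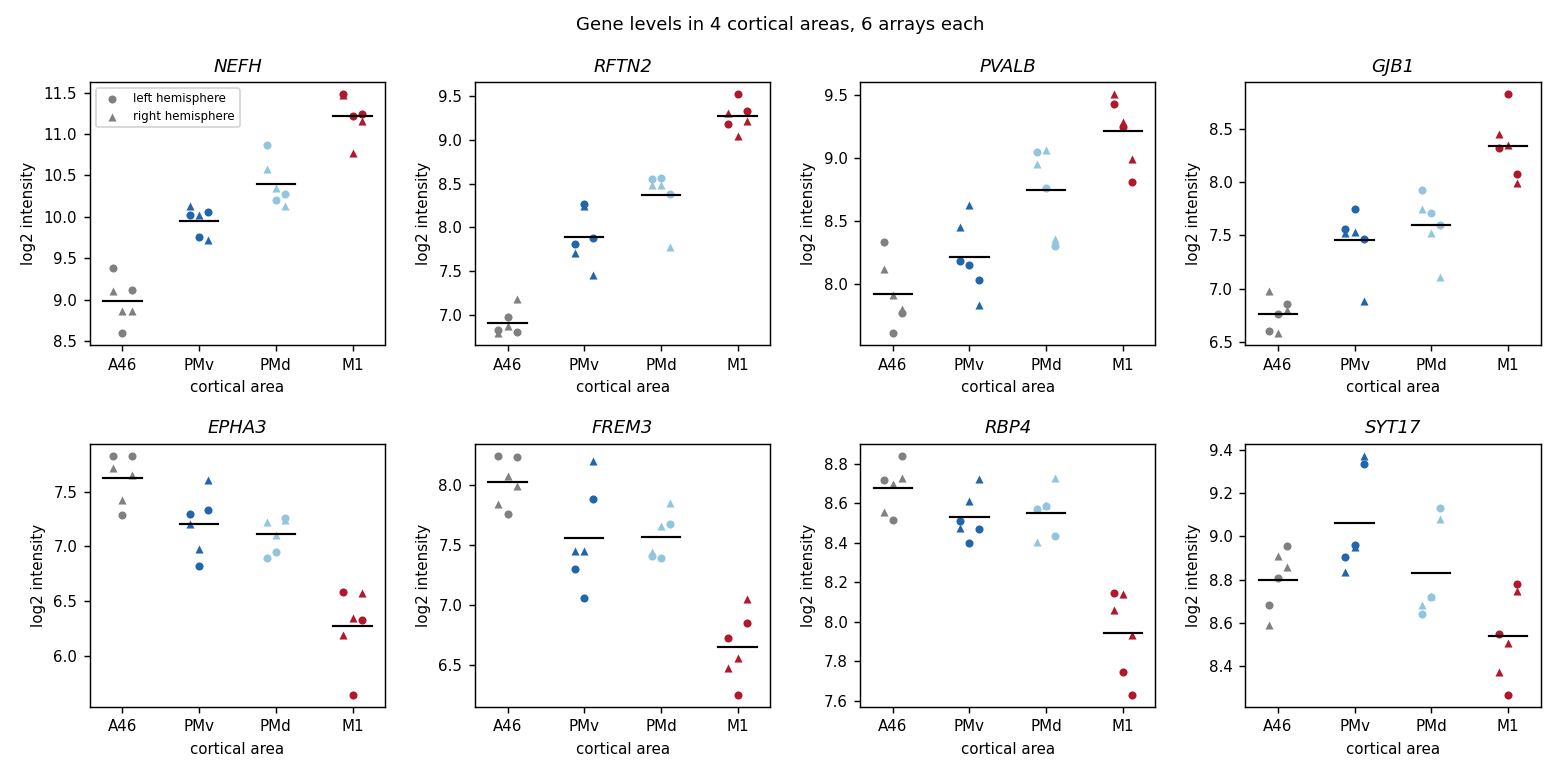
Log2 intensity (vertical axis) of 8 genes on 6 arrays of each of 4 cortical areas (horizontal axis), with circles for left and triangles for right hemispheres, animals 1 to 3 from left to right within an area, and bars for area means. NEFH has means of 8.98, 9.95, 10.40 and 11.22 from A46 to M1, and EPHA3, FREM3 and RBP4 have their lowest values in M1.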

How the data were processed

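Total RNA from 4 cortical areas in both hemispheres of 3 animals was hybridised to 24 Affymetrix Rhesus arrays. The deposited values are probe set intensities on a linear scale, and RMA is the method named by the submitters' processing notes. The sources used here give neither its settings nor a genome build, and no coordinates are printed. RMA scales arrays to each other, so a shift of all transcripts in one area could not be seen.

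The deposited intensities were changed to log2 here, with a floor of 1 that no value fell below. Of 52865 probe sets 99 controls were removed, and 26383 with a mean log2 value of at least 5.62 (intensity 49.3) were tested. In the platform annotation 24956 probe sets have 1 gene symbol, 361 have several and 27449 have none. By Entrez identifier 24616 matched a RefSeq gene table, and 0 symbols changed. A gene was represented by its brightest probe set, and other probe sets of the gene may differ.

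Hemispheres were averaged within each animal and area, giving 12 values, and limma 3.58.1 in R 4.3.3 was fitted over all 4 areas, with the animal as a block and an intensity trend (6 residual degrees of freedom). P-values are two-sided and adjusted by Benjamini-Hochberg over the 26383 probe sets, with 0.05 as the threshold. The pairing comes from the animal numbers in the titles. Deviations from area means correlated between M1 and PMv of the same animal by 0.676, 0.648 and 0.665, and between different animals by -0.130 at most. Deviations of the 3 animals sum to 0 within an area. Positive values for the same animal therefore entail negative ones between animals on balance. The fit was tested on simulated data. The number of animals, 3, limits the precision. No 2 arrays were duplicates, with correlations of 0.977 to 0.997 and at most 121 identical values.

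Genes were named by rule: up to 12 called genes each way with the largest difference and the same sign in 3 animals, up to 4 each way for PMd minus PMv, up to 4 members of each of 35 lists by smallest p, and a fixed set. Further list members were named after their values were seen. The comparison, the lists and the fixed set were chosen with earlier results of these data known. Lists overlap, so a gene may be counted in several. Alternatives were right or left arrays alone, other blocks, filters and scalings, and each animal or array left out. The single-array omissions were chosen after seeing the data.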

Additional observations from a re-analysis of the deposited data

Results flagged for a closer look

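Among 143 named genes and 6 arrays per area, 286 groups were examined, and in 11 of them 1 array stood apart from the others of its area by Dixon's test at the 95% level. Chance marks about 1 in 20 groups in this way. GJB1 was 6.88 on the right PMv array of animal 3 and 7.47 to 7.74 on the other PMv arrays, and KCNJ10 was 8.74 on the left PMv array of animal 2 against 8.94 to 9.06. TBR1 was 10.36 on the left PMv array of animal 1, where the others gave 10.52 to 10.61. On that same array SEMA6D was 8.48 (others 8.95 to 9.11) and SLC6A9 6.16 (others 6.33 to 6.41). SLIT2 was 8.05 on the left PMv array of animal 2 (others 8.16 to 8.20). In M1, FEZF2 was 8.89 on the left array of animal 2 (others 8.49 to 8.57), as was SLC25A13 at 6.82 (others 6.36 to 6.42). DIAPH3 was 5.51 on the right M1 array of animal 2 (others 6.25 to 6.62), SCN3A 6.82 on the right array of animal 1 (others 7.20 to 7.35) and KIFAP3 10.83 on the left array of animal 3 (others 10.98 to 11.05). The left PMv arrays of animals 1 and 2, whose log2 values have the narrowest spread, hold 3 and 2 of the 11 values. No named gene had all M1 minus PMv differences of one sign in the left hemispheres and all of the other sign in the right (0 of 143), while 126 of the 10043 tested genes did. That pattern was not tested.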

How the results depend on the processing

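Against 494 probe sets called in M1 minus PMv, right arrays alone called 297 (194 higher and 103 lower), left arrays alone 32, single arrays with animal by area as a random block 996, a fit with only M1 and PMv 1225 and quantile normalization 799. Without the replicate block for animal 4 were called. Leaving out an animal gave 21 to 3814 calls and leaving out 1 array 138 to 860. The split was 404 higher and 395 lower after quantile normalization, 320 and 321 at a common interquartile range, and 258 and 351 with that range as a covariate. For PMd minus PMv (2 called), right arrays called 1, left arrays 0, the random block 21, no replicate block 0, quantile normalization 1 and a common interquartile range 1, and leaving out an animal or array gave 0 to 1398. The difference between hemispheres (0 called) gave 0 to 718 when an animal was left out, the highest without animal 3. It was not refitted with single arrays left out. All 494 called probe sets kept their sign under each alternative fitted to the same 26383 probe sets. Of 52 called named genes 0 changed sign, and 40 were called in right arrays alone, 14 in left arrays alone and 2 without the block. Of 91 named genes not called, 17 changed sign in some setting. At a common interquartile range the medians of the astrocyte, heat shock, immediate early, synaptic vesicle and GABAergic lists were below 0. The median of all genes was below 0 as well (-0.01). The number of animals limits how small a difference could be called.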
